A study of Mus musculus with 6 samples.

Results

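The C-type lectin and Siglec genes of mouse blood progenitors were compared between cells with the leukaemia fusion MLL-ENL and cells with MLL-ENL and LIN28B. Members were the protein-coding entries whose symbol begins with Clec and a digit or with Siglec, which gave 38 genes among 55471 gene IDs. The ME group held 3 libraries of genotype MLL-ENL and the L28BME group 3 libraries of genotype LIN28B*MLL-ENL. All came from granulocyte-monocyte-lymphoid progenitors (GMLPs) of mouse bone marrow, sorted as Lin- Kit+ SCa1+ CD48+ CD150- cells then cultured with DOX for 3 days. MLL-ENL and DOX were thus common to both groups, and cells without them were not analysed here. The sources used here do not give the promoters of the transgenes, the age of the mice or whether a library is 1 animal or a pool. The p-values therefore reflect the spread among these libraries alone, which may be technical. Values are TPM, a length-scaled measure of transcript abundance brought to a fixed total per library. The read depth behind them is unknown, so no counting interval is given.

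Between 13215 and 13288 genes per library reached 1 TPM, and libraries correlated across genes, as log2(TPM + 1), at 0.987 to 0.988 with others of their group and at 0.977 to 0.98 with the other group (Pearson; genes are not independent). Lin28b was listed at 0 in the ME libraries and at 11.2 to 11.9 TPM in the L28BME libraries. Of the genes of the sort, Kit had means of 94.1 ± 15.7 TPM in ME and 79.2 ± 8.10 TPM in L28BME. Each ± is an SD over n = 3 libraries. Slamf1, which encodes CD150, was at 0, 0.209 and 0.151 TPM in ME and at 0.706, 0.526 and 0.670 TPM in L28BME. These values did not overlap but were too low to be tested. Cd48 fell from 297 ± 5.29 to 228 ± 2.24 TPM and Ly6a, the Sca1 gene, from 10.6 ± 1.09 to 2.07 ± 0.970 TPM.

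C-type lectins share a protein fold that in many members binds sugars on microbes or on the body's own cells, and in others binds proteins or lipids. Siglecs are immunoglobulin-type lectins that bind sialic acid, the sugar that caps many glycans of vertebrate cells. Some receptors of either kind signal through SYK, by way of an ITAM motif in a partner such as Fcer1g or Tyrobp. Others carry an ITIM motif that recruits phosphatases and dampens activation. Myeloid progenitors begin to show some of them as they mature, and the human counterpart of Clec12a, also called CLL-1, is used as a surface marker of acute myeloid leukaemia cells.

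In L28BME cells, 4 members were lower and 1 was higher than in ME cells. The inhibitory receptor gene Clec12a, the most abundant member, fell from 130.9 ± 0.0632 to 104.4 ± 3.56 TPM, and the neighbouring microbial sensor genes Clec4d and Clec4e fell to 0.708 and 0.61 of their ME means. Clec11a, which encodes a secreted growth factor of blood progenitors, fell to 0.509 of its ME mean. Siglecf, which encodes an inhibitory Siglec best known from eosinophils, rose 1.7-fold. Of the 38 members, 14 had at least 1 TPM in at least 3 of the 6 libraries and were tested, 9 of them without a call. Over the 13348 genes tested, 14.9% were called, 6.6% as lower and 8.28% as higher (limma on log2(TPM + 1), two-sided, Benjamini-Hochberg adjusted p under 0.05). For 10 of the 14, the ME and L28BME values were separate, without overlap, beside 36.7% of all tested genes. The median log2 fold change was -0.26 over the 14 and 0.0033 over all tested genes. Siglech passed the minimum through its ME libraries alone, and 11 of the 14 were at 1 TPM or more in every library. Each of the 5 calls held without any 1 of the 6 libraries.

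**Figure D1:**
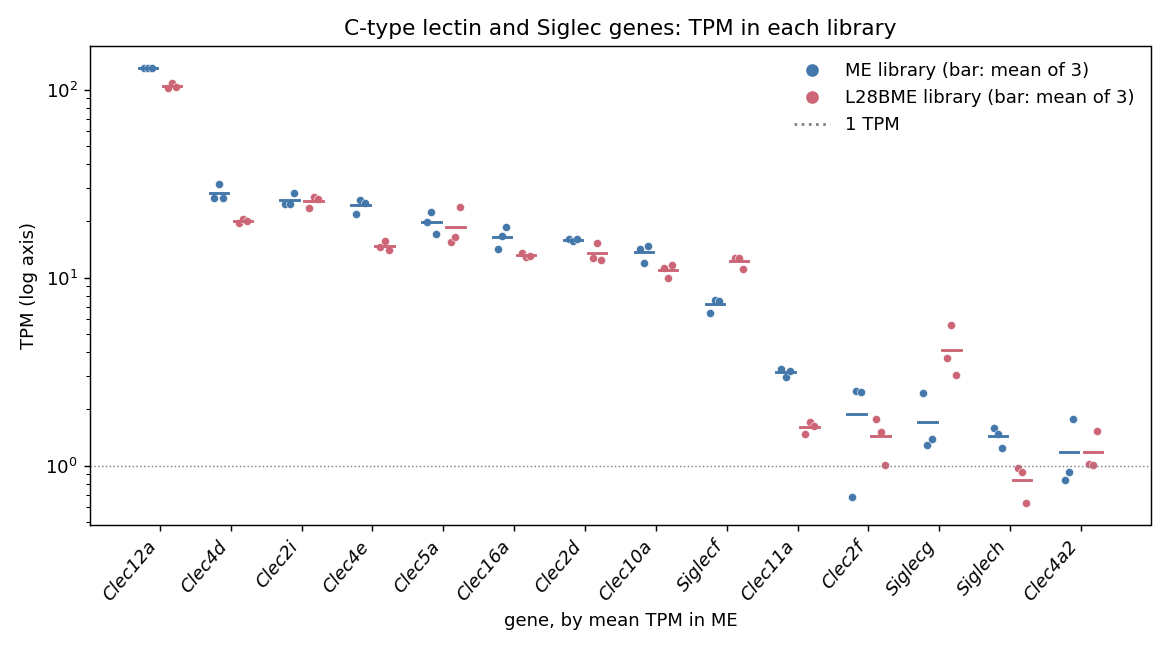
TPM of the 14 tested C-type lectin and Siglec genes on a log axis, with a point for each of the 3 ME and 3 L28BME libraries, a bar for each group's mean and a dotted line at 1 TPM. Clec12a stands above the others at 101.5 to 130.9 TPM, and the points of Siglecf are higher in L28BME while those of Clec4e, Clec4d and Clec11a are lower.

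Levels spanned about 2 orders of magnitude. Clec12a alone made up 44 to 45.9% of the summed TPM of the 38 members in ME and 42 to 43% in L28BME. The sum itself was 285 to 298 TPM in ME and 236 to 252 TPM in L28BME. In ME, Clec4d, Clec2i, Clec4e, Clec5a, Clec16a, Clec2d and Clec10a followed at means from 28.2 down to 13.7 TPM, and each overlapped the next in its values except Clec2d and Clec10a. Siglecf came next, below Clec10a without overlap in ME, with a mean of 7.20 TPM there. Clec11a, Clec2f, Siglecg, Siglech and Clec4a2 had ME means from 3.15 down to 1.18 TPM, and of these Clec11a alone stood clear of the next.

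Among receptors with inhibitory tails, Clec12a was at 130.8, 130.9 and 130.9 TPM in ME replicates 1, 2 and 3 and at 101.5, 108.4 and 103.4 TPM in L28BME replicates 1, 2 and 3. The ME libraries lay together and above every L28BME library. Its log2 fold change was -0.32 (SE 0.0355, adjusted p = 0.00325). The gene (ENSMUSG00000053063) lies on chromosome 6 from 129342691 to 129365303 on the plus strand of GRCm38. Clec4a2, also called DCIR, which carries an ITIM, was at 0.8402, 0.9208 and 1.765 TPM in ME and at 1.021, 1.005 and 1.535 TPM in L28BME. These values overlapped, and the difference of 0.024 on the log2 scale had a 95% interval from -0.468 to 0.516 (adjusted p = 0.953).

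Clec4d (MCL) and Clec4e (Mincle) encode receptors that pair with Fcer1g, and Mincle binds the mycobacterial glycolipid known as cord factor. Clec4e was at 21.7, 25.9 and 25.0 TPM in ME and at 14.6, 15.7 and 14.0 TPM in L28BME. Its groups did not overlap, with a log2 fold change of -0.67 (SE 0.0846, adjusted p = 0.00494). Clec4d was at 26.6, 31.5 and 26.6 TPM in ME and at 19.6, 20.5 and 19.9 TPM in L28BME. Every ME library again lay above every L28BME library (log2 fold change -0.47, SE 0.0777, adjusted p = 0.013). The genes stand next to each other on chromosome 6, Clec4d from 123262111 to 123275265 on the plus strand and Clec4e from 123281789 to 123289870 on the minus strand, with 6523 bases between them. Clec5a, which encodes the Tyrobp-coupled receptor MDL-1, was at 19.85, 22.32 and 17.09 TPM in ME and at 15.4, 16.4 and 23.8 TPM in L28BME. L28BME replicate 3 was the highest and L28BME replicate 1 the lowest of the 6 libraries, so the groups overlapped, and the log2 difference of -0.11 had a 95% interval from -0.545 to 0.334 (adjusted p = 0.743).

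Several of these receptors are known from monocytes, macrophages and neutrophils, some of whose marker genes also differed between the groups. Over all tested genes, 8.28% were called higher and 6.6% lower, to set beside the marker counts here and below. Of 14 monocyte and macrophage genes, 8 were tested, 4 fell and 1 rose, their summed TPM was 416 to 442 in ME and 302 to 313 in L28BME, and C1qa and Marco were at 0 in each library. Most of the lower sum came from Ly6c2, which fell from 289 ± 12.2 to 190 ± 6.85 TPM. Csf1r was the gene that rose, from 22.2 ± 1.07 to 26.8 ± 0.840 TPM. Of 12 neutrophil genes, 9 were tested, 5 rose and 1 fell, and their summed TPM was 237 to 248 in ME and 556 to 585 in L28BME. The part of the monocyte, macrophage and neutrophil genes in the lower Clec12a, Clec4d and Clec4e was not tested. In bulk RNA, fewer cells of a type and less RNA per cell cannot be told apart.

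**Figure D2:**
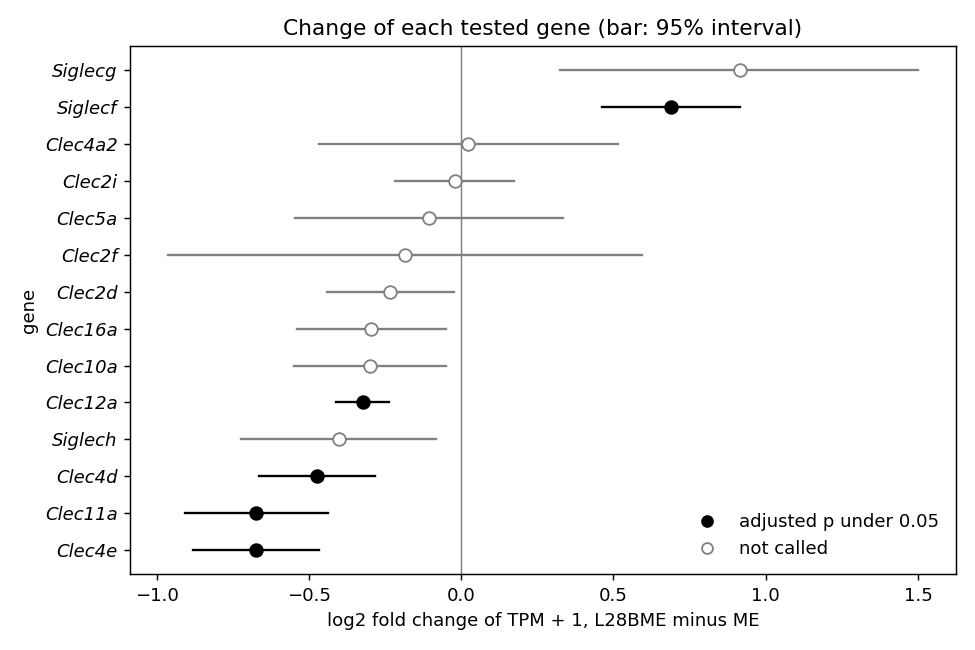
Log2 fold change of TPM + 1 from ME to L28BME for the 14 tested genes, with bars for the 95% interval and filled points for an adjusted p under 0.05. The 4 called lower genes range from -0.67 to -0.32, Siglecf is the only filled point above 0 at 0.69, and Siglecg has a larger estimate of 0.91 with a wider interval.

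Of the 3 tested genes with a Siglec symbol, Siglecf rose and the other two did not pass; Cd33, a Siglec gene under another symbol, is described with the related lists. Siglecf (ENSMUSG00000039013, chromosome 7, 43351341 to 43359531 on the plus strand) was at 6.465, 7.638 and 7.495 TPM in ME and at 12.8, 12.7 and 11.1 TPM in L28BME. All L28BME libraries lay above all ME libraries (log2 fold change 0.69, SE 0.0931, adjusted p = 0.00657). Siglecg, an inhibitory Siglec of B cells, was at 2.43, 1.29 and 1.39 TPM in ME and at 3.73, 5.61 and 3.03 TPM in L28BME. Its groups did not overlap either, but L28BME replicate 2 stood above the other libraries and the difference did not pass (log2 fold change 0.91, SE 0.241, 95% interval 0.326 to 1.5, adjusted p = 0.0559). With protein-coding genes alone, rescaled, the adjusted p was 0.0457. Siglech, a Tyrobp-coupled Siglec of plasmacytoid dendritic cells, was at 1.58, 1.47 and 1.24 TPM in ME and at 0.972, 0.926 and 0.631 TPM in L28BME. Each ME library was above each L28BME library, but the difference did not pass (log2 fold change -0.40, 95% interval -0.722 to -0.0821, adjusted p = 0.0995). Siglece, an inhibitory Siglec of neutrophils and monocytes, was under the minimum and was not tested in the main fit. It was at 0.947, 0.764 and 0.527 TPM in ME and 0.839, 1.5 and 1.80 TPM in L28BME, with overlap. With no filter on low values, its log2 fold change was 0.43 (limma adjusted p = 0.29). Siglec1, which encodes the macrophage receptor sialoadhesin, and Siglec15, known from osteoclasts, were listed at 0 in each library.

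Marker genes of the cells in which these Siglecs are best known gave mixed counts. Of 16 eosinophil, basophil and mast cell genes, 11 were tested, 1 rose and 2 fell, their summed TPM was 641 to 682 in ME and 586 to 609 in L28BME, and the eosinophil receptor gene Ccr3 was at 0. The genes that fell were Mcpt8, a basophil protease gene, from 125.0 ± 5.71 to 64.7 ± 2.44 TPM, and Cpa3, a mast cell and basophil protease gene, from 239 ± 3.89 to 208 ± 6.87 TPM. The gene that rose was Epx, which encodes eosinophil peroxidase, from 17.5 ± 0.404 to 24.4 ± 0.589 TPM (adjusted p = 0.00317). The eosinophil granule genes Prg2, at 40.6 ± 2.53 and 46.3 ± 1.77 TPM, and Ear6, at 3.33 ± 0.601 and 4.465 ± 0.475 TPM, did not pass but did not overlap (adjusted p = 0.0948 and 0.149). Ear2 did overlap, at 1.05 ± 0.55 and 0.699 ± 0.318 TPM. Of 12 B cell genes, 7 were tested and 5 rose, and their summed TPM was 35.3 to 38.0 in ME and 73.1 to 77.9 in L28BME. Of 9 plasmacytoid dendritic cell genes, Siglech among them, 8 were tested, 3 rose and none fell, and their summed TPM was 257 to 284 in ME and 302 to 311 in L28BME. The part of these cell types in the Siglec values was not tested.

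Clec11a encodes stem cell growth factor alpha, a secreted protein that acts on blood progenitors and bone-forming cells. It was at 3.28, 2.96 and 3.20 TPM in ME and at 1.47, 1.72 and 1.62 TPM in L28BME. The groups lay well apart for a gene of low level (log2 fold change -0.67, SE 0.0963, adjusted p = 0.00793). The gene (ENSMUSG00000004473) lies on chromosome 7 from 44302687 to 44306902 on the minus strand.

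Genes of the Clr group encode surface ligands that receptors of natural killer cells recognise. Clec2d (Clr-b) was at 16.1, 15.6 and 16.1 TPM in ME and at 12.7, 15.2 and 12.5 TPM in L28BME. L28BME replicate 2 lay close to the ME libraries, and the difference did not pass (log2 fold change -0.23, 95% interval -0.442 to -0.0228, adjusted p = 0.134). Without that library the adjusted p was 0.0442. Clec2i (Clr-g) was at 24.5, 24.7 and 28.3 TPM in ME and 23.5, 26.8 and 26.1 TPM in L28BME, with a log2 difference of -0.02 and a 95% interval from -0.216 to 0.175 (adjusted p = 0.896). Klrb1f, the receptor gene for Clr-g, was at 8.26 ± 2.60 and 9.44 ± 2.37 TPM, while Klrb1b, the receptor gene for Clr-b, was listed at 0. Clec2f was at 0.6819, 2.505 and 2.475 TPM in ME and 1.77, 1.505 and 1.011 TPM in L28BME (adjusted p = 0.746). Its ME libraries alone spanned the L28BME range, and GENCODE M21 lists it as a transcribed pseudogene where the deposited table lists it as protein-coding. How reads were shared among the related Clec2 genes is uncertain, as it is among the Clec4a and Clec4b genes.

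Clec10a encodes MGL1, a galactose-type lectin of macrophages and dendritic cells that takes up glycoproteins. It was at 14.25, 12.03 and 14.81 TPM in ME and at 11.28, 9.895 and 11.62 TPM in L28BME. The groups did not overlap, and the difference did not pass (log2 fold change -0.30, 95% interval -0.548 to -0.0495, adjusted p = 0.112). Of 10 dendritic cell genes, 5 were tested, 2 rose and 1 fell, their summed TPM was 254 to 287 in ME and 375 to 405 in L28BME, and Cd209a was at 0. Flt3, which progenitors also express, gave most of the higher sum and rose from 96.6 ± 3.96 to 187 ± 2.10 TPM. Itgax fell from 4.64 ± 0.678 to 2.68 ± 0.302 TPM, and Wdfy4 was at 117 ± 11.1 and 117 ± 5.69 TPM. The part of dendritic cell genes in the Clec10a values was not tested. Clec16a carries the family's symbol but acts inside the cell, in endosomal traffic and the removal of mitochondria. It was at 14.2, 16.6 and 18.5 TPM in ME and at 13.6, 12.8 and 13.1 TPM in L28BME. The L28BME libraries lay together below a wider ME group (log2 fold change -0.29, 95% interval -0.538 to -0.0506, adjusted p = 0.11), and without ME replicate 1 the adjusted p was 0.046.

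LIN28B blocks the maturation of let-7 microRNAs, most of which share a seed at bases 2 to 8 that pairs with target RNAs. The seed of let-7a is shown in capitals beside the member that holds its match, also in capitals, in an annotated 3′ UTR of GENCODE M21.
let-7a-5p: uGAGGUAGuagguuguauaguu
Clec16a: ccaacacttgaCTACCTCtgatttagtct
The Clec16a match lies on chromosome 16 from 10695512 to 10695518 on the plus strand of GRCm38, at base 621 of a 3′ UTR of 837 bases. Among tested members with an annotated 3′ UTR, 1 of 13 held the letters CTACCTC, beside 11.2% of 10882 tested genes. Clec14a and Siglec1, listed at 0 here, also held a match. None of the 5 called members did, and a match is a description of letters, not a site shown to act.

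Promoter windows of the 5 called members are given, of which Clec12a, Clec4d, Clec4e and Clec11a fell and Siglecf rose. They run from 250 bases before to 50 after the RefSeq start in GRCm38.p6, each on its gene's strand, at chr6:129349994-129350293, chr6:123261857-123262156, chr6:123289822-123290121, chr7:44306910-44307209 and chr7:43351091-43351390. Capitals mark 3 motifs on either strand: for the myeloid factor PU.1 its core GAGGAAG, for C/EBP factors the core TTNNGCAA, and for GATA factors the core AGATAA.
Clec12a: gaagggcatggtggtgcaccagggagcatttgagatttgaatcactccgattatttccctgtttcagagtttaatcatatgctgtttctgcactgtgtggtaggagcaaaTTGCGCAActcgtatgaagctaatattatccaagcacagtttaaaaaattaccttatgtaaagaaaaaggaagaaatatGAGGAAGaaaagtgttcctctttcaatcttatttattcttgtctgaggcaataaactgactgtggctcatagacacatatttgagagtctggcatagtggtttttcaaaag
Clec4d: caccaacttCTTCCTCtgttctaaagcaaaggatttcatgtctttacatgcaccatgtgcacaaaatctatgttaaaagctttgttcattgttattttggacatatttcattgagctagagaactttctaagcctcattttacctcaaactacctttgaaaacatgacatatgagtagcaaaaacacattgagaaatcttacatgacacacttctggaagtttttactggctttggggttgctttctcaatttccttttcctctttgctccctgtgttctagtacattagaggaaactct
Clec4e: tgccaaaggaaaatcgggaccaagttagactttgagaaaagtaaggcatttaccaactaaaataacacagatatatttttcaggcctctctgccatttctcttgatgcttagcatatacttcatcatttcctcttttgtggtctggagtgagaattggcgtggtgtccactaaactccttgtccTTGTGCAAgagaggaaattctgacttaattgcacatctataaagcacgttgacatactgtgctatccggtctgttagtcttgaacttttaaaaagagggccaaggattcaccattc
Clec11a: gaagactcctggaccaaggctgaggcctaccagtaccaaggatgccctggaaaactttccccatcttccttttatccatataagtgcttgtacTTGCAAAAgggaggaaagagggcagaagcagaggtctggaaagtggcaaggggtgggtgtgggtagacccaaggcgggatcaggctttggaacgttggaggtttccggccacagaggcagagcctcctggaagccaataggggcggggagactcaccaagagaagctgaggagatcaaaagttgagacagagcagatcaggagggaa
Siglecf: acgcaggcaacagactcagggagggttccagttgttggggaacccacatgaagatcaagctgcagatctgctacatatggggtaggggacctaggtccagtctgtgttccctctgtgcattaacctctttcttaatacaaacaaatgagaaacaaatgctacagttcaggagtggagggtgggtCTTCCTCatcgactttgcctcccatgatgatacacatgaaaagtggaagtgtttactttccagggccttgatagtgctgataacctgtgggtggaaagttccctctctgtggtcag
Clec12a held the PU.1 letters once, from base -61, and the C/EBP letters once, from base -140. Clec4d held the PU.1 letters from base -241 and Clec4e the C/EBP letters from base -66, so these neighbours shared none of the 3 in their windows. Clec11a held the C/EBP letters from base -157. Siglecf, which rose, held the PU.1 letters from base -66. Of the 12 tested members in the table, 6 held the PU.1 letters, namely Clec12a, Clec16a, Clec4d, Clec5a, Siglecf and, in 1 of its windows, Siglecg. The C/EBP letters were held by 6, namely Clec11a, Clec12a, Clec16a, Clec2i, Clec4e and Siglech, and the GATA letters by 0. Called members made up 3 of the 6 in either case, so both motifs also stood before members without a call. Of 32851 RefSeq promoter windows of this length, 13.6% held the PU.1 letters, 10.8% the C/EBP letters and 11.2% the GATA letters. The RefSeq start of Clec12a lies inside the longer GENCODE gene model. The table matched 29 of the 38 members and 12 of the 14 tested ones.

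The remaining members were hardly detected. Of the 24 members under the minimum, 12 were listed at 0 in each library: Clec12b, Clec14a, Clec18a, Clec2e, Clec2g, Clec2h, Clec3a, Clec4a4, Clec4b1, Clec4g, Siglec1 and Siglec15. The other 12 were below 1 TPM throughout, except Siglece with a highest value of 1.80 TPM. They include Clec9a, a receptor of cross-presenting dendritic cells, at or below 0.0989 TPM, the platelet receptor gene Clec1b at or below 0.523 TPM and Clec4n (Dectin-2) at or below 0.497 TPM. Clec4a1 was at 0.0517, 0.166 and 0 TPM in ME and at 0.295, 0.315 and 0.428 TPM in L28BME, without overlap but under the minimum of the main fit. With no filter on low values, its log2 fold change was 0.33 (limma adjusted p = 0.062). Clec1b and Clec9a share 184 exonic bases, so their reads may not be separable. No tested member shares exonic bases with another gene model of either strand.

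**Figure D3:**
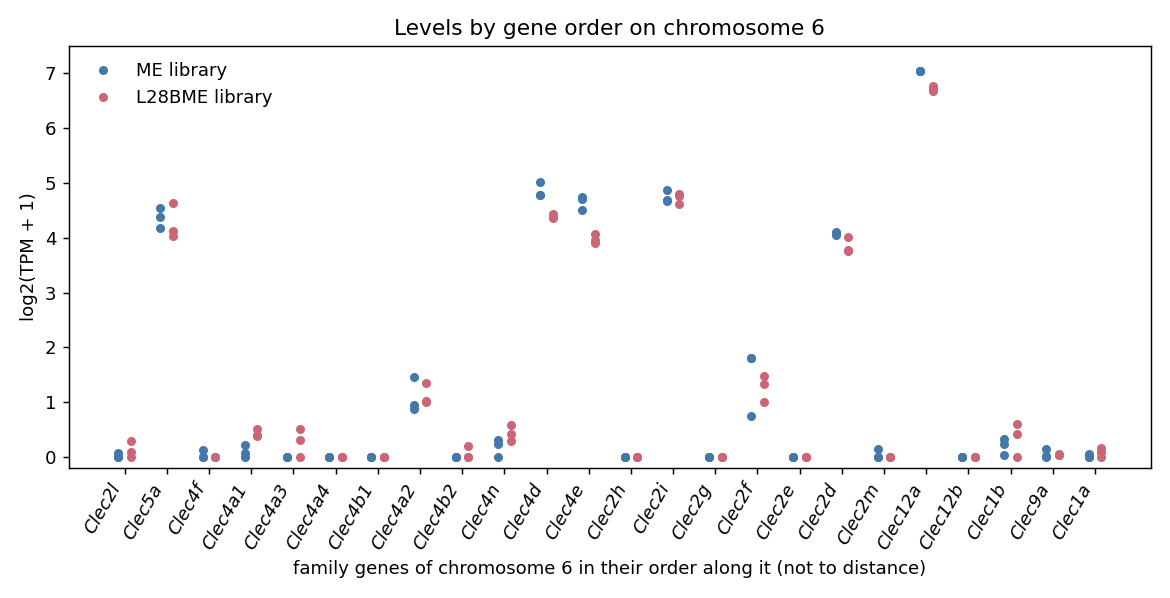
Log2(TPM + 1) in each library of the 24 family genes on chromosome 6, in their order along it and not to distance. Expressed family genes sit singly or, as with Clec4d and Clec4e, side by side among family genes near 0, and Clec12a is the highest.

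Chromosome 6 held 24 of the 38 members, 8 of which were tested, and chromosome 7 held 5, of which 4 were tested. In the order of family genes along chromosome 6, the tested ones stood among members at or near 0. Lectin genes outside the family as counted here were left out of this order. Clec12a, at over 100 TPM, has Clec2m and Clec12b as its nearest family genes, at no more than 0.104 TPM. Siglecf and Siglecg are nearest family genes on chromosome 7, and their values lay higher in L28BME without overlap, with a call for Siglecf alone.

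Genes that carry the receptors' signals or set the Siglecs' ligands were read from related lists. Beside the counts of each list stands the share over all tested genes, 8.28% higher and 6.6% lower. No list was tested as a set. In the list of SYK pathway and adaptor genes, 3 of 14 tested genes rose and 2 fell. Tyrobp, the adaptor of Clec5a and Siglech also known as DAP12, rose by 0.49 on the log2 scale, from 502 ± 8.41 to 705 ± 9.79 TPM, with adjusted p = 3.49e-04. Fcer1g, the adaptor of Clec4d and Clec4e, had means of 436 ± 7.63 and 429.5 ± 12.45 TPM, with a log2 difference of -0.02 (adjusted p = 0.703). The phospholipase gene Plcg2 rose from 140.8 ± 0.983 to 191 ± 5.16 TPM. Fgr, a SRC family kinase gene, rose from 2.47 ± 0.209 to 4.28 ± 0.438 TPM, but its adjusted p of 0.0162 was 0.0535 to 0.0587 without ME replicate 2 or 3 or L28BME replicate 1 or 3. The adaptor gene Lcp2 fell from 65.9 ± 0.908 to 55.4 ± 0.702 TPM, and Hcst, also called DAP10, from 37.1 ± 2.79 to 27.2 ± 2.01 TPM. The adjusted p of Hcst, 0.0179, was 0.0501 to 0.0631 without ME replicate 1 or 3 or L28BME replicate 1 or 2. Syk itself was at 92.9 ± 5.34 and 105 ± 5.86 TPM (adjusted p = 0.114), and Card9, which acts after it, at 93.7 ± 2.83 and 99.8 ± 3.41 TPM (adjusted p = 0.211).

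Of the 3 phosphatase genes that ITIM tails recruit, 1 was called. Ptpn11 (SHP-2) rose from 90.3 ± 2.08 to 101.5 ± 1.12 TPM (adjusted p = 0.0245), a call that was lost, at 0.0571 to 0.0785, when any 1 library except ME replicate 3 was left out. Ptpn6 (SHP-1) was at 197 ± 12.9 and 218 ± 11.5 TPM (adjusted p = 0.169), and Inpp5d (SHIP1) at 102 ± 2.86 and 96.3 ± 3.69 TPM (adjusted p = 0.235).

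Of 31 genes of sialic acid synthesis, transfer and removal, 20 were tested, 3 rose and none fell, with a median log2 fold change of 1.16e-04. These calls were near the share over all tested genes, 14.9% in either direction. Cmas, which activates sialic acid for transfer, rose by 0.38 on the log2 scale, from 94.1 ± 1.74 to 122.5 ± 3.38 TPM, with adjusted p = 0.00205. St3gal5, which makes the ganglioside GM3, rose from 21.7 ± 0.313 to 27.4 ± 1.26 TPM, and St6gal1, which makes the linkage that Cd22 binds, from 7.97 ± 0.846 to 11.8 ± 0.750 TPM. The adjusted p of St6gal1, 0.0193, was 0.0518 to 0.0648 without ME replicate 2 or any 1 L28BME library, and that of St3gal5, 0.0132, was 0.052 without ME replicate 2. Gne, the first enzyme of the pathway, was at 43.4 ± 1.78 and 39.99 ± 2.635 TPM (adjusted p = 0.27). Cmah was at 5.44 ± 1.23 and 8.82 ± 2.11 TPM (adjusted p = 0.1), and St3gal6 at 3.04 ± 0.497 and 4.77 ± 0.716 TPM (adjusted p = 0.062).

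Lectin-fold and Siglec genes with other symbols made a list of 42, of which 15 were tested, 5 rose and none fell. Cd33, a Siglec gene of myeloid cells, rose from a mean of 33.96 ± 2.11 to one of 50.2 ± 2.66 TPM (log2 fold change 0.55, adjusted p = 0.00408). The early activation antigen gene Cd69 rose from 83.6 ± 2.91 to 111.5 ± 5.74 TPM and Cd72, an inhibitory lectin of B cells, from 27.4 ± 2.55 to 39.3 ± 2.05 TPM. Cd93 rose from 133 ± 1.26 to 147 ± 4.31 TPM and the thrombomodulin gene Thbd from 4.41 ± 0.716 to 6.565 ± 0.472 TPM, but the calls of both were lost without any 1 of the 6 libraries. Their adjusted p of 0.0407 and 0.0476 then became 0.0583 to 0.11 for Cd93 and 0.0544 to 0.134 for Thbd. Olr1, an oxidised lipoprotein receptor gene, was at 1.19 ± 0.335 and 2.33 ± 0.507 TPM (adjusted p = 0.0659). Cd22, the B cell Siglec, was at or below 0.0843 TPM in each library.

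**Figure D4:**
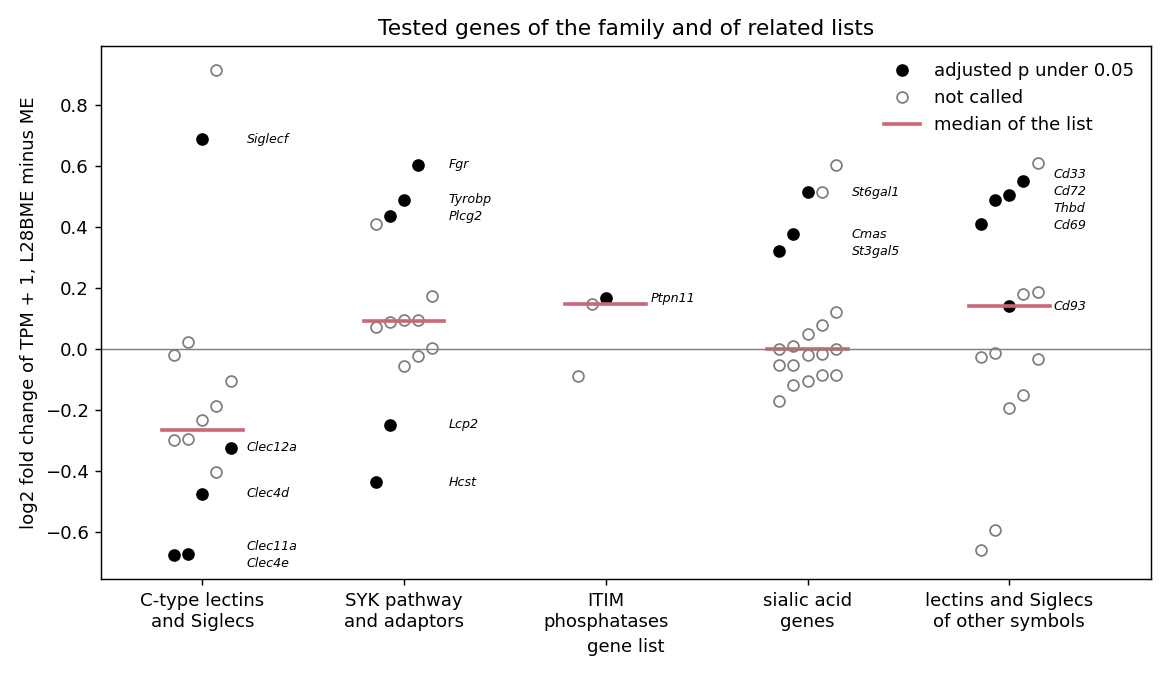
Log2 fold change of TPM + 1 from ME to L28BME for each tested gene of the family (14), the SYK pathway and adaptors (14), the ITIM phosphatases (3), the sialic acid genes (20) and lectins and Siglecs of other symbols (15), with filled, named points at an adjusted p under 0.05 and a line at each median. The family's median is the lowest at -0.26, and the called genes of the sialic acid list and of the last list all lie above 0.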

How the data were processed

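Polyadenylated RNA of each culture was sequenced from stranded TruSeq libraries, per the labels' protocols. The submitters' processing notes name bcl2fastq, HISAT2, StringTie, DESeq2 and GRCm38; the sources used here give neither their versions nor whether counting used strand. The authors deposited TPM for each gene in each library, and the table's percent GC of each gene, deposited by the authors, was not used. The 60496 rows held 55471 gene IDs, 431 of them on several rows and 0 with values on more than 1 row. TPM summed to 999919 to 999996 per library.

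Genes with at least 1 TPM in at least 3 of 6 libraries were tested as log2(TPM + 1) with limma 3.58.1 under R 4.3.3. The prior variance followed the mean level, with Benjamini-Hochberg adjustment over all tested genes; fold changes on this scale understate changes of low genes. TPM are not counts and no count model was used. The family and the lists were chosen with earlier results of these data known. Named genes were tested members, untested ones with a mean of at least 0.5 TPM, Lin28b, sort markers and up to 6 genes of each related list with the smallest p; a few others were chosen after their values were seen. The SYK pathway list is counted without 1 gene, whose result is not reported here. The procedure was tested on simulated data. Positions and 3′ UTRs came from GENCODE M21, promoters and let-7 from RefSeq (GRCm38.p6). Alternatives were pseudocounts, filters, scalings, limma options, a replicate block, summed overlapping models and leaving out each library. Figures used Python 3.11.15 and matplotlib 3.10.9.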

Additional observations from a re-analysis of the deposited data

How the results depend on the processing

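Over 17 alternatives, the calls of Clec12a, Clec4d, Clec4e and Siglecf held in each, with adjusted p at most 0.0292, 0.0492, 0.0287 and 0.0433. Clec11a kept its call in 15 of the 16 that tested it; the stricter minimum of 5 TPM removed it, which left 3 members lower. With protein-coding genes alone, rescaled, 2 members were higher, Siglecg being the second. Members called lower numbered 4 to 5 without any 1 library. Over all genes, leaving out 1 library gave 617 to 693 higher and 461 to 582 lower, beside 1105 and 881, with fewer samples in each fit. No label says that libraries of the same number share an animal or a day, and their deviations from group means correlated at -0.032, -0.0743 and -0.0516, so they were not treated as pairs. With a replicate block 548 genes were higher and 400 lower, and Clec11a had adjusted p = 0.0533; the block also moved Cd72 (0.0562), Hcst (0.0554), St3gal5 (0.0566), St6gal1 (0.0808), Ptpn11 (0.0865), Cd93 (0.112) and Thbd (0.0896) out of the calls and Cmah into them (0.0407); the cause was not tested. Under other scalings the median log2 fold change of all genes was -0.0065 to 0.0151, beside 0.0033. Of 722 values of named genes under alternatives, 51 changed their call and none that was called changed its sign. Depth is unknown, so members near 0 cannot be called absent.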

Other observations

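Clec7a, which encodes the beta-glucan receptor Dectin-1, lies outside the family as counted here because the deposited table lists it as a polymorphic pseudogene. It was at 9.90, 4.36 and 9.18 TPM in ME and at 12.4, 17.25 and 13.7 TPM in L28BME. All L28BME libraries lay above all ME libraries, with ME replicate 2 the lowest, and the difference did not pass (limma adjusted p = 0.106 for a log2 fold change of 0.87 with SE 0.291, and 0.0971 to 0.239 over 16 alternatives). Like Clec4d and Clec4e, which fell, it encodes a receptor that signals through SYK and CARD9.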
